A study of Mus musculus with 6 samples.

Results

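The 48 genes described here encode the apparatus that carries new secretory and membrane proteins into the endoplasmic reticulum (ER) and attaches N-linked glycans to them. The rule lists them by name, as subunits and enzymes of these complexes, and uses no measured value, although the list was drawn up with earlier results of these data known. All 48 were found by symbol among the 54446 genes listed, and all 48 passed the filter on low counts that left 16734 genes for testing. The set comprises 6 genes of the signal recognition particle (SRP), 2 of its receptor, 3 of the Sec61 channel, 2 of the Sec62-Sec63 pair, 4 of the translocon-associated protein (TRAP) complex, 5 of signal peptidase, 10 of oligosaccharyltransferase (OST), 10 of the assembly of the lipid-linked oligosaccharide, and 6 of glucose trimming and the calnexin cycle.

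The data are RNA-seq libraries of whole liver, 1 from each of 3 WT and 3 Fmo5-/- mice. FMO5 is a flavin-containing monooxygenase that is abundant in liver, and the comparison asks which transcripts differ in amount when its gene is disrupted. The 6 mice were 32-week-old males, kept on standard chow with free access to food and sampled in the morning. WT mice were C57BL/6J, and the Fmo5-/- line was generated on the same background. The knockout is present in every tissue throughout life, so that a difference in liver could arise in liver cells or elsewhere. Fmo5, on chromosome 3, had normalized counts of 39807.7, 37405.3 and 30239.7 in WT mice and of 1071.29, 1102.37 and 1193.81 in Fmo5-/- mice.

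A ribosome that makes a secretory protein is bound by SRP as the signal peptide emerges, is handed to the SRP receptor on the ER membrane, and docks on the Sec61 channel, through which the chain passes into the ER. Signal peptidase removes the signal peptide, and OST transfers a preassembled glycan from the lipid dolichol to asparagine residues of the chain. Glucosidases then trim the glycan so that the lectin chaperones calnexin and calreticulin can bind it, and UGGT1 adds a glucose back to glycoproteins that are not yet folded. Hepatocytes, which secrete most plasma proteins, use this pathway heavily, and many of its genes are known targets of the unfolded protein response, whose transcription factors ATF6 and XBP1 act at motifs in the promoters.

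The promoters of 37 of the 48 genes could be matched by symbol, each read as 250 bases before to 50 bases after the start of a RefSeq transcript on GRCm38.p6. They were searched on both strands for the ER stress response element, which consists of CCAAT, 9 bases of any kind and CCACG. The element was found in 3 of the 37 genes (8.11%), Calr, Canx and Alg12, and in 37 of 26994 genes with a promoter in the same table (0.137%). The stretches around it are shown because they hold the most specific of the motifs that were searched. They are written 5′ to 3′ on the strand of the gene, with the ends of the element in capitals. In Calr, which codes for calreticulin, the element is on the opposite strand and therefore reads as CGTGG and ATTGG.
Calr, chr8:84847035-84847133, minus strand: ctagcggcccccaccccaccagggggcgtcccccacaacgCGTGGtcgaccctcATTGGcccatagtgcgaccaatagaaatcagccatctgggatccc
Canx, chr11:50325760-50325858, minus strand: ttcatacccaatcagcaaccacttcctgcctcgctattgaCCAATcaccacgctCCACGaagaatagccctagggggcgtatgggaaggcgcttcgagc
Alg12, chr15:88819480-88819568, minus strand: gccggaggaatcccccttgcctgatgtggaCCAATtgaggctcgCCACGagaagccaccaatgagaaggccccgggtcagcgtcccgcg
The element begins 162 bases before the start in Calr, 145 in Canx and 220 in Alg12.

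Of the shorter motifs, CCACG and CCAAT were common among all promoters. CCACG, counted with or without CCAAT, was present in 22 of the 37 genes (59.5%) and in 35.5% of all genes. CCAAT, counted with or without CCACG, was present in 21 (56.8%) and in 41.0%. ACGTGG, a core that XBP1 can bind, was present in 8 (21.6%) and in 9.39% of all genes. TGACGTG, the core of the unfolded protein response element, was present in 2 genes, Mogs and Srpr (5.41%), and in 2.22% of all genes. Because these motifs share letters, their counts are not independent. The promoter of Ssr3, the member with the lowest fold change, had no complete ER stress response element in this window. It holds ACGTGG, read on the opposite strand as CCACGT, and CCAAT at 2 places, which are in capitals.
Ssr3, chr3:65392640-65392763, minus strand: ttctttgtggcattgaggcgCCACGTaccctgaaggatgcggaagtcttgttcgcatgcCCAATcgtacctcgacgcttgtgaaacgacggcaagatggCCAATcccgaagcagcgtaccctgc
A match describes the letters only, and binding was not measured.

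Transcripts of the set were mostly lower in the liver of Fmo5-/- mice, by small amounts. Of the 48 members, 45 had a lower mean and 3, Alg2, Alg3 and Alg5, a higher mean, with a median log2 fold change of -0.22, or a decrease of 14.0%. The median over all tested genes was 0.0058, and over the 7819 genes that averaged 500 or more normalized counts it was -0.062. A lower mean was found for 49.2% of all tested genes and for 64.0% of those with a mean of 500 or more. Fold changes of members ranged from -0.52 for Ssr3 to 0.17 for Alg2 on the log2 scale. The sign of 5 further members turned with the scaling: with the limit of 500 applied before scaling, Srp14, Srp19, Spcs1, Dad1 and Alg1 were above 0, and the median over the 41 members then tested was -0.13 in place of -0.19. With counts of 1 strand, Srp19 and Alg8 were above 0.

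A gene was called differentially expressed where edgeR's quasi-likelihood test gave a Benjamini-Hochberg adjusted p under 0.05 over all tested genes and the mean normalized count was 500 or more, which 41 of the 48 members reached. The members called lower were 3, Ssr3, Ostc and Magt1, and none was called higher. Among all genes with a mean of 500 or more, 1.06% were called lower and 0.55% higher by the same test. Without the limit on the mean, the same 3 members passed as lower and 0 as higher, beside 0.693% and 0.675% of all tested genes. At an unadjusted p under 0.05, 22 members were lower and 0 were higher, beside 10.2% and 11.6% of all tested genes. With DESeq2, 9 members were called lower and 0 higher, which were Srp9, Ssr1, Ssr3, Stt3a, Stt3b, Ostc, Magt1, Uggt1 and Canx. DESeq2 called 6.77% of genes with a mean of 500 or more lower and 2.77% higher.

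The counts of the genotypes did not overlap for 25 members. Every Fmo5-/- mouse was below every WT mouse for 24 of the 48 members, against 13.5% of all tested genes and 21.9% of those with a mean of 500 or more. Every Fmo5-/- mouse was above every WT mouse for 1 member, Alg5, against 13.9% of all tested genes. With 3 mice in each group, the smallest p of an exact permutation test is 0.1, so that a single gene cannot pass 0.05 on its own ranks.

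Leaving out 1 mouse reduced the calls, for the members and for most fits also over all genes that averaged 500 or more. No member was called without WT mouse 1, WT mouse 2, Fmo5-/- mouse 1 or Fmo5-/- mouse 2, where 0.254, 0.329, 0.0901 and 0.361% of those genes were called lower. Without WT mouse 3 the calls were Ssr3 and Magt1, with 0.956% of genes called lower, and without Fmo5-/- mouse 3 Magt1 alone, with 1.37%. The log2 fold changes changed less, from -0.58 to -0.44 for Ssr3, from -0.48 to -0.39 for Ostc and from -0.54 to -0.44 for Magt1. The median log2 fold change of the members stayed between -0.24 and -0.17 in these 6 fits.

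**Figure D1:**
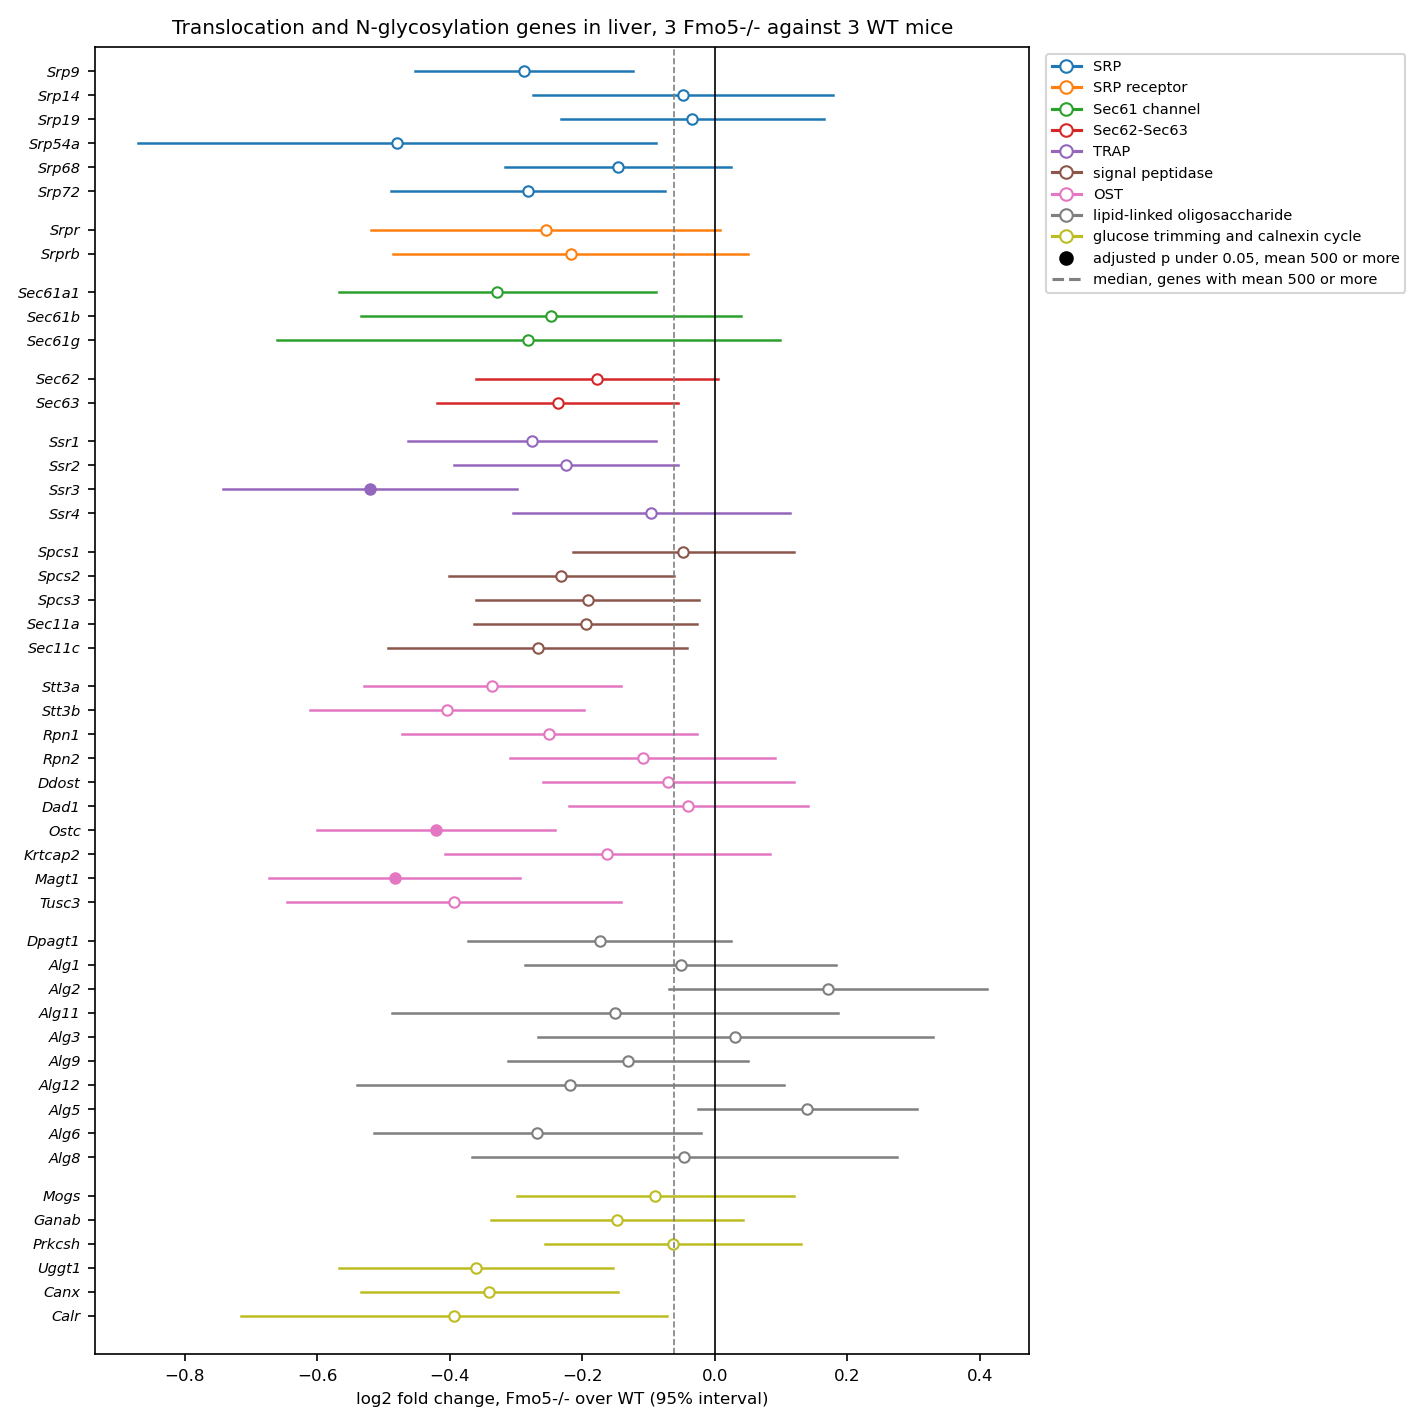
Log2 fold change, Fmo5-/- over WT, of each of the 48 members with its 95% interval from edgeR, coloured and grouped by role, with filled points for members that passed the threshold. Most points lie left of 0, the 3 filled points are Ssr3, Ostc and Magt1, and the dashed line marks the median of -0.062 over genes that averaged 500 or more normalized counts.

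The members were compared mouse by mouse as the log2 ratio of each normalized count to the WT mean. The median over the 48 members was -0.027, 0.049 and -0.029 in the WT mice and -0.22, -0.18 and -0.18 in the Fmo5-/- mice. The same median over all genes that averaged 500 or more was 0.0083, 0.014 and -0.025 in WT mice and -0.041, -0.10 and -0.058 in Fmo5-/- mice. The genotypes were thus separated in both medians, with the members further below the WT mice. WT mouse 2 held the highest count of 23 of the 48 members, and Fmo5-/- mice 1 and 2 held the lowest count of 17 members each. The summed normalized counts of the members were 233120, 260219 and 242293 in WT mice and 199490, 209067 and 200935 in Fmo5-/- mice. As a share of all counts on genes, the members took 0.457, 0.520 and 0.475% in WT mice and 0.409, 0.464 and 0.425% in Fmo5-/- mice, and on this scale, which has no TMM factor, the second Fmo5-/- mouse was above the first WT mouse.

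**Figure D2:**
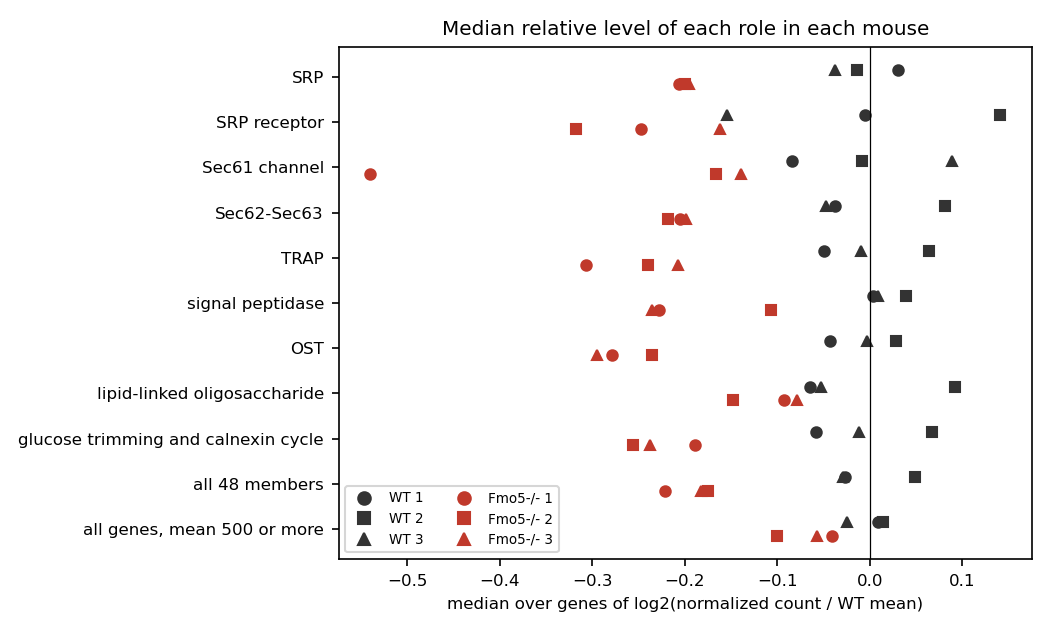
Median over the members of each role of the log2 ratio of the normalized count to the WT mean, 1 point per mouse, with WT mice in black and Fmo5-/- mice in red. For all 48 members the Fmo5-/- mice lie between -0.22 and -0.18, and among the roles the points of the 2 genotypes come nearest to each other for the SRP receptor and for the lipid-linked oligosaccharide.

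SRP recognises the signal peptide through its SRP54 subunit, and SRP9 and SRP14 slow the ribosome until it reaches the membrane. All 6 SRP genes had a lower mean in Fmo5-/- mice (median log2 fold change -0.21), but the sign of Srp14 and Srp19 turned with the limit of 500 before scaling, and no gene of the group was called by edgeR. Srp9 had 2597, 2505 and 2557 normalized counts in WT mice and 1997, 2097 and 2180 in Fmo5-/- mice. The WT mice were close together and all Fmo5-/- mice were lower, with a log2 fold change of -0.29 and a standard error (SE) of 0.073 (edgeR adjusted p = 0.0765). DESeq2 gave Srp9 an adjusted p of 0.0274. About 16.1% of the 75-base windows of Srp9 transcripts also occur in other genes, and reads from such windows may be missing from its count.

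Srp72, whose product binds the SRP RNA together with SRP68, had 6477, 6802 and 5659 normalized counts in WT mice and 5434, 5088 and 5049 in Fmo5-/- mice. The genotypes did not overlap for Srp72 (log2 fold change -0.28, edgeR adjusted p = 0.125) or for Srp68 (-0.15, edgeR adjusted p = 0.304). Srp54a had the lowest fold change of the group, with 336, 341 and 286 normalized counts in WT mice and 290, 194 and 207 in Fmo5-/- mice (log2 fold change -0.48, SE 0.17, edgeR adjusted p = 0.155). The first Fmo5-/- mouse was above the third WT mouse. Srp54a is below the limit on the mean, and 68.3% of its 75-base windows are shared with Srp54b and Srp54c. Reads that map to more than 1 place or gene stay out of the counts, so part of its reads may be uncounted. The means of Srp14 differed by less than the SD of either genotype. Those of Srp19 differed by less than the SD of the Fmo5-/- mice but by more than the small SD of the WT mice. Srp19 had means of 1102 ± 5.66 and 1077 ± 100.1, a log2 fold change of -0.034 with a 95% interval from -0.23 to 0.16 (edgeR adjusted p = 0.862), and for Srp14 the log2 fold change was -0.048.

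The SRP receptor consists of the GTPase SRPR and its membrane anchor SRPRB. Neither gene was called, and the genotypes overlapped for both. Srpr had 7880, 9605 and 7450 normalized counts in WT mice and 7688, 6418 and 6782 in Fmo5-/- mice (log2 fold change -0.26, SE 0.12, edgeR adjusted p = 0.243). Srprb had means of 609 ± 52.6 and 523 ± 66.0 (log2 fold change -0.22, SE 0.12, edgeR adjusted p = 0.325), and 20.7% of its exonic length overlaps another gene model.

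Sec61a1 codes for the pore of the Sec61 channel, and Sec61b and Sec61g for its small subunits. The pore gene had 5504, 6555 and 5539 normalized counts in WT mice and 5157, 4221 and 4638 in Fmo5-/- mice. All Fmo5-/- mice were below all WT mice, at a log2 fold change of -0.33 (SE 0.11, edgeR adjusted p = 0.123). Sec61b had means of 2286 ± 224 and 1925 ± 306, with overlap between the genotypes (log2 fold change -0.25, SE 0.13, edgeR adjusted p = 0.297). Sec61g was low, at 174 ± 10.5 and 143 ± 23.2 normalized counts (log2 fold change -0.28, edgeR adjusted p = 0.371). The first Fmo5-/- mouse had the lowest count of both small subunits, and the median of the channel in that mouse was -0.54, against -0.17 and -0.14 in the other two Fmo5-/- mice.

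Sec62 and Sec63 code for membrane proteins that assist the channel with chains that enter after synthesis and that recruit the chaperone BiP. Sec63 had 9104, 9590 and 8580 normalized counts in WT mice and 7712, 7628 and 7798 in Fmo5-/- mice (log2 fold change -0.24, SE 0.081, edgeR adjusted p = 0.137). Sec62 had 8863, 9925 and 9277 in WT mice and 8291, 8243 and 8280 in Fmo5-/- mice (log2 fold change -0.18, SE 0.081, edgeR adjusted p = 0.242). In both genes the Fmo5-/- mice were below all WT mice and nearly equal to each other, with coefficients of variation of 1.11% and 0.301%. Neither gene was called by edgeR or DESeq2.

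The TRAP complex sits beside the channel and helps chains with weak signal peptides to enter. Its gene Ssr3 (ENSMUSG00000027828.12, chr3:65379655-65392623, minus strand of mm10), which codes for the gamma subunit, had the lowest log2 fold change of the 48 members. Ssr3 had 13345, 15066 and 12306 normalized counts in WT mice and 9935, 9091 and 9346 in Fmo5-/- mice. The highest Fmo5-/- mouse was well below the lowest WT mouse, and the WT mice varied more. The means of 13572 ± 1394 and 9457 ± 433 (SD, n = 3 each) gave a log2 fold change of -0.52 (SE 0.098, edgeR adjusted p = 0.0459). In the 6 fits that left out 1 mouse, the adjusted p of Ssr3 was between 0.0463 and 0.129 and passed the threshold in 1.

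The other TRAP genes were not called by edgeR, and their difference from Ssr3 was not tested. Ssr1, the alpha subunit, had 6050, 6897 and 6303 normalized counts in WT mice and 5169, 5236 and 5493 in Fmo5-/- mice (log2 fold change -0.28, edgeR adjusted p = 0.107, DESeq2 adjusted p = 0.0432). Ssr2, the beta subunit, had 4308, 4469 and 4414 in WT mice and 3568, 3864 and 3854 in Fmo5-/- mice (log2 fold change -0.22, edgeR adjusted p = 0.132). Neither gene had overlap between the genotypes. Ssr4, the delta subunit, did overlap, with means of 5443 ± 235 and 5092 ± 500.0 (log2 fold change -0.096, SE 0.093, 95% interval -0.31 to 0.11, edgeR adjusted p = 0.591). The 95% intervals of Ssr3 and Ssr4 meet only between -0.31 and -0.30.

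Signal peptidase holds a catalytic subunit, either SEC11A or SEC11C, with the partners SPCS1, SPCS2 and SPCS3. All 5 genes had a lower mean in Fmo5-/- mice, although Spcs1 turned sign with the limit of 500 before scaling, and 0 were called by edgeR or by DESeq2, with 4 lower at an unadjusted p under 0.05 from edgeR, beside 10.2% of all tested genes. Sec11a had 2812, 2739 and 2800 normalized counts in WT mice and 2348, 2585 and 2364 in Fmo5-/- mice, without overlap (log2 fold change -0.19, SE 0.075, edgeR adjusted p = 0.173). Sec11c had 1378, 1543 and 1561 in WT mice and 1126, 1396 and 1201 in Fmo5-/- mice, where the second Fmo5-/- mouse was above the first WT mouse (log2 fold change -0.27, SE 0.100, edgeR adjusted p = 0.165). Per length of the gene model, Sec11a was the more abundant of the 2 catalytic genes in every mouse, with a ratio between 2.62 and 3.08. The model of Sec11c carries another version number than the gene counted, so its length may differ.

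Spcs2 and Spcs3 did not overlap between the genotypes. Spcs2 had means of 5883 ± 226 and 5010.3 ± 106 (log2 fold change -0.23, edgeR adjusted p = 0.127), and Spcs3 of 3757 ± 167 and 3288 ± 88.8 (log2 fold change -0.19, edgeR adjusted p = 0.178). Spcs1 was at 2416, 2404 and 2199 in WT mice and at 2261, 2270 and 2259 in Fmo5-/- mice, with a log2 fold change of -0.048 (SE 0.074, 95% interval -0.21 to 0.12, edgeR adjusted p = 0.756). The third WT mouse had less Spcs1 than any Fmo5-/- mouse.

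With all 6 mice, OST had the lowest median of the groups, at a log2 fold change of -0.29, or a decrease of 18.4%, close to the -0.28 of the Sec61 channel. All 10 of its genes had a lower mean in Fmo5-/- mice, with the sign of Dad1 alone turning with the limit of 500 before scaling. By edgeR 2 were called, Magt1 and Ostc, and 4 by DESeq2 with the limit on the mean, these 2 with Stt3a and Stt3b. Every Fmo5-/- mouse was below every WT mouse for 6 of the 10, which adds Rpn1 and Tusc3. Of all genes that averaged 500 or more, 64.0% had a lower mean, edgeR called 1.06% and DESeq2 6.77% lower, and 21.9% had every Fmo5-/- mouse below every WT mouse. OST exists in 2 forms, one with the catalytic subunit STT3A, which sits at the channel through OSTC and KRTCAP2 and glycosylates chains as they enter, and one with STT3B and the thioredoxin-like subunit MAGT1 or TUSC3, which reaches sites that the first form skips.

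Of the subunits of the STT3B form, Magt1 (ENSMUSG00000031232.16, chrX:105968084-106011906, minus strand of mm10) had 4371, 4508 and 3845 normalized counts in WT mice and 2974, 3100 and 3027 in Fmo5-/- mice. The Fmo5-/- mice were close together, and all were below the lowest WT mouse. The log2 fold change was -0.48 (SE 0.084, edgeR adjusted p = 0.0378), and the adjusted p was between 0.0332 and 0.131 with 1 mouse left out, passing in 2 of 6 fits. Tusc3, its paralogue, had 528, 487 and 462 in WT mice and 410, 346 and 368 in Fmo5-/- mice, also without overlap (log2 fold change -0.39, SE 0.11, edgeR adjusted p = 0.0931). Its mean is under the limit of 500, and without that limit DESeq2 gave an adjusted p of 0.0432. Stt3b had 5208, 4547 and 4520 in WT mice and 3881, 3399 and 3506 in Fmo5-/- mice, a difference that passed with DESeq2 (adjusted p = 0.00495) and not with edgeR (adjusted p = 0.0633).

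Of the subunits of the STT3A form, Ostc (ENSMUSG00000041084.8, chr3:130695912-130709444, minus strand of mm10) had 3039, 3190 and 3007 normalized counts in WT mice and 2242, 2477 and 2178 in Fmo5-/- mice. The genotypes were far apart compared with the spread within either (log2 fold change -0.42, SE 0.080, edgeR adjusted p = 0.0466), but the adjusted p was between 0.0510 and 0.132 with 1 mouse left out and passed in 0 of the 6 fits. Stt3a had 6066, 6616 and 5917 in WT mice and 5274, 4689 and 4773 in Fmo5-/- mice, without overlap (DESeq2 adjusted p = 0.0141, edgeR adjusted p = 0.0779). Krtcap2 had means of 2201 ± 168 and 1967 ± 254, and there the genotypes overlapped (log2 fold change -0.16, edgeR adjusted p = 0.425).

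Of the subunits common to both forms, none was called. Rpn1, which codes for ribophorin I, had 8787, 9687 and 10364 normalized counts in WT mice and 7347, 8619 and 8289 in Fmo5-/- mice (log2 fold change -0.25, SE 0.099, edgeR adjusted p = 0.185). Rpn2 (log2 fold change -0.11, edgeR adjusted p = 0.522) and Ddost (-0.071, edgeR adjusted p = 0.674) overlapped between the genotypes. Dad1 had 2885, 2904 and 3196 in WT mice and 2780, 3065 and 2895 in Fmo5-/- mice, a log2 fold change of -0.040 (SE 0.080, 95% interval -0.22 to 0.14, edgeR adjusted p = 0.820). These 4 genes thus gave log2 fold changes from -0.25 to -0.040, and the 6 genes particular to a form from -0.48 to -0.16, so that the ranges overlapped. Whether the subunit types differ was not tested.

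The balance between paralogues was measured in each mouse as a ratio per length of the gene model, which cancels the scaling. The ratio of Stt3a to Stt3b was 0.549, 0.686 and 0.618 in WT mice and 0.641, 0.651 and 0.642 in Fmo5-/- mice, and the genotypes overlapped (difference of mean log2 ratios 0.068). The ratio of Magt1 to Tusc3 was between 6.08 and 6.81 in WT mice and between 5.33 and 6.58 in Fmo5-/- mice (difference -0.085), again with overlap. For Sec11a to Sec11c the difference was 0.075, and the genotypes overlapped. These ratios are given as a description, because an exact permutation test of 3 mice against 3 cannot give a p below 0.1 and so could not have shown a difference.

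**Figure D3:**
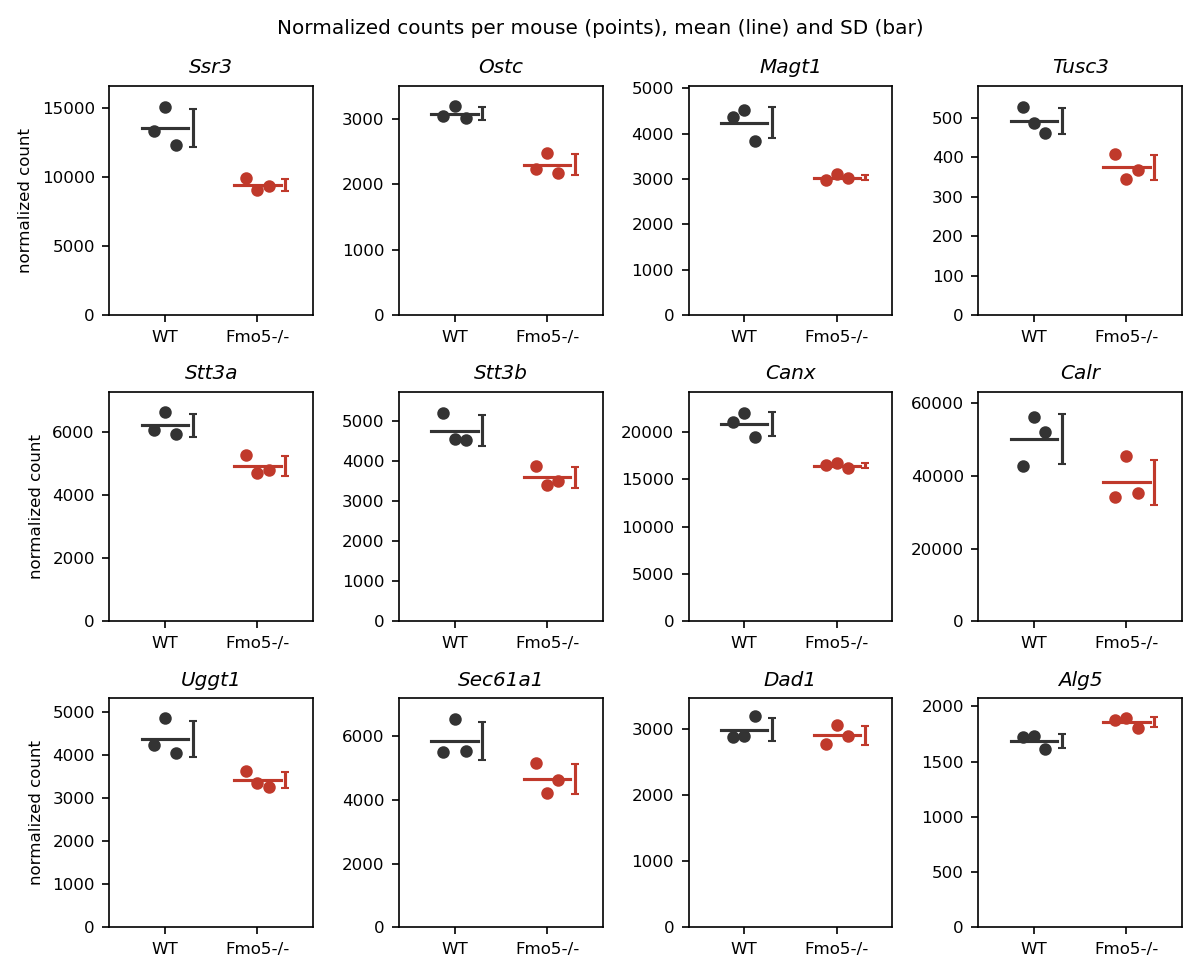
Normalized counts in each mouse (points) for 12 members, with the mean (line) and SD (bar) of each genotype and every axis starting at 0. The genotypes do not overlap for Ssr3, Ostc, Magt1, Tusc3, Stt3a, Stt3b, Canx, Uggt1, Sec61a1 and Alg5, which is higher in Fmo5-/- mice, and they overlap for Calr and Dad1.

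The glycan that OST transfers is built on dolichol by enzymes that add one sugar at a time. Among those in the set, DPAGT1 acts at the start, ALG1, ALG2, ALG11, ALG3, ALG9 and ALG12 add mannose, and ALG6 and ALG8 add glucose. ALG5 makes the dolichol-linked glucose that ALG6 and ALG8 use. This group had the median nearest to 0 of the roles, at a log2 fold change of -0.091. Of its 10 genes, 7 had a lower mean and 3 a higher mean, and the sign of Alg1 turned with the limit of 500 before scaling. None was called in either direction by edgeR or DESeq2, and 1, Alg6, was lower at an unadjusted p under 0.05 from edgeR, beside 10.2% of all tested genes.

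Alg5 was the 1 member with all Fmo5-/- mice above all WT mice. It had 1719, 1727 and 1611 normalized counts in WT mice and 1877, 1893 and 1802 in Fmo5-/- mice (log2 fold change 0.14, SE 0.073, 95% interval -0.025 to 0.30, edgeR adjusted p = 0.307). Alg2 had the highest fold change, with 551, 538 and 623 in WT mice and 628, 589 and 710 in Fmo5-/- mice, where the second Fmo5-/- mouse was below the third WT mouse (log2 fold change 0.17, SE 0.11, edgeR adjusted p = 0.389). Alg3 gave 0.030 with wide scatter in WT mice (edgeR adjusted p = 0.918).

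At the other end of this group, Alg6 had 416, 407 and 386 normalized counts in WT mice and 357, 310 and 338 in Fmo5-/- mice, without overlap (log2 fold change -0.27, SE 0.11, edgeR adjusted p = 0.195). Alg9 did not overlap either (log2 fold change -0.13, edgeR adjusted p = 0.383), although 10.4% of its windows are shared with an overlapping gene. Dpagt1 (-0.17), Alg11 (-0.15), Alg12 (-0.22), Alg1 (-0.052) and Alg8 (-0.046) overlapped between the genotypes. Alg12, whose promoter holds the ER stress response element printed above, had means of 406 ± 63.4 and 349 ± 32.9 and a 95% interval from -0.54 to 0.10 (edgeR adjusted p = 0.414). Alg3, Alg6, Alg8 and Alg12 are below 500 normalized counts on average, so they could not be called under the limit on the mean.

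**Figure D4:**
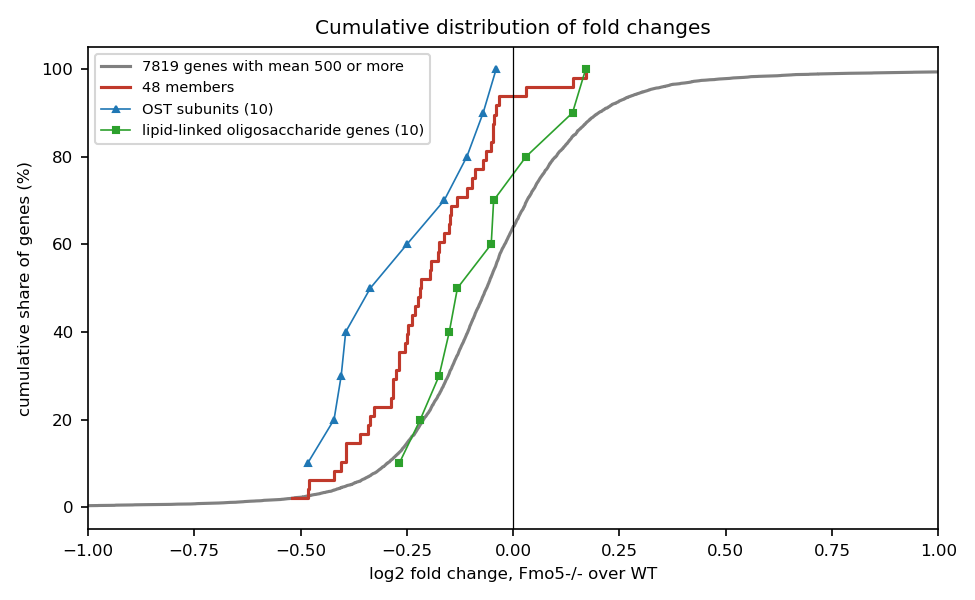
Cumulative share of genes by log2 fold change, Fmo5-/- over WT, for the 7819 genes that averaged 500 or more normalized counts (grey), the 48 members (red), OST (blue) and the lipid-linked oligosaccharide genes (green), with the axis cut at -1 and 1. The red curve lies left of the grey one, the 10 OST genes lie between -0.48 and -0.040, and the lipid-linked oligosaccharide genes lie between -0.27 and 0.17.

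In the last group, Mogs, Ganab and Prkcsh code for the glucosidases, and Uggt1, Canx and Calr for the enzyme and lectins of the calnexin cycle. All 6 genes had a lower mean in Fmo5-/- mice (median log2 fold change -0.24), and none was called by edgeR. Canx had 21052, 21940 and 19393 normalized counts in WT mice and 16507, 16645 and 16120 in Fmo5-/- mice. The Fmo5-/- mice had a coefficient of variation of 1.66% and all lay below the WT mice, with a log2 fold change of -0.34 (SE 0.086, edgeR adjusted p = 0.0763, DESeq2 adjusted p = 0.00501). Uggt1 had 4250, 4859 and 4063 in WT mice and 3627, 3351 and 3274 in Fmo5-/- mice, again without overlap (log2 fold change -0.36, SE 0.092, edgeR adjusted p = 0.0765, DESeq2 adjusted p = 0.0149).

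Calr had the lowest fold change of this group and the widest scatter of the 3 cycle genes. It had 42669, 56068 and 52040 normalized counts in WT mice and 34116, 45410 and 35205 in Fmo5-/- mice, so that the second Fmo5-/- mouse was above the first WT mouse. The log2 fold change was -0.39 with a standard error of 0.14 (edgeR adjusted p = 0.155, DESeq2 adjusted p = 0.0513). The 3 genes with the ER stress response element thus gave log2 fold changes of -0.39 for Calr, -0.34 for Canx and -0.22 for Alg12, none of which passed by edgeR. With no filter beyond 1 count, edgeR called Canx (adjusted p = 0.0147) and Calr (adjusted p = 0.00324), where 9% of genes that averaged 500 or more were called lower. The glucosidase genes were nearer to 0, at -0.15 for Ganab (edgeR adjusted p = 0.347), where the genotypes did not overlap, at -0.090 for Mogs (edgeR adjusted p = 0.620) and at -0.063 for Prkcsh. Prkcsh, the beta subunit of glucosidase II, had means of 5338 ± 400.0 and 5109 ± 204 (SE 0.085, edgeR adjusted p = 0.715).

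The members cover a wide range of levels. In RPKM, counts scaled for library size and for the length of the gene model, Calr was highest at 358 ± 48.9 in WT mice, followed by Canx at 90.8 ± 5.65, Ssr3 at 66.7 ± 6.85, Srpr at 50.6 ± 6.95 and Ssr2 at 48.3 ± 0.899 (SD, n = 3 each). The levels of Srpr and Ssr2 differed by less than their spread. The lowest were Sec61g at 1.45, Srp54a at 1.24 and Alg6 at 0.967. RPKM divides by the whole length, although 13.7% of the windows of Sec61g, 68.3% of Srp54a and 0% of Alg6 are shared with other genes. The 2 called members of OST were of middle rank, with Ostc at 22.9 and Magt1 at 18.6 in WT mice and at 17.1 and 13.3 in Fmo5-/- mice. RPKM values compare transcripts only roughly, since the gene model adds the exons of all isoforms. The median coefficient of variation of members was 6.79% in WT mice and 6.65% in Fmo5-/- mice.

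On the mouse genome 6 members lie on chromosome 3 with Fmo5, at distances of 8.38 Mb for Krtcap2, 9.04 for Ssr2, 32.2 for Ssr3, 33.0 for Ostc, 42.9 for Alg5 and 66.8 for Sec62. Both Ssr3 and Ostc are therefore on the chromosome that was altered, and Magt1 is not. Genes of chromosome 3 with a mean of 500 or more were called lower in 4.47% of cases (17 of 380) and genes elsewhere in 0.887% (66 of 7439). The median log2 fold change was -0.20 over the 6 members on chromosome 3, which all averaged 500 or more. It was -0.22 over all members elsewhere, of which 35 averaged 500 or more. Over the 41 members that averaged 500 or more on any chromosome it was -0.19. An effect of the disrupted gene and of sequence linked to it cannot be told apart for genes of this chromosome.

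Genes that act with the members were counted from a list of 63 further names, of which 61 were listed and 60 were tested. Lower means were found for 50 and higher means for 10, with a median log2 fold change of -0.15. By edgeR, 1 of the 60 was called lower and 0 higher, beside 1.06% and 0.55% of genes with a mean of 500 or more, and DESeq2 called 8 lower, beside 6.77%. The called gene was Serp1, whose product stabilises proteins at the channel, with 15499, 17562 and 14058 normalized counts in WT mice and 10821, 10172 and 10637 in Fmo5-/- mice (log2 fold change -0.57, edgeR adjusted p = 0.0378). It also lies on chromosome 3. A lower mean was found for 64.0% of all genes that averaged 500 or more. Beside this share, lower means were found for 3 of 3 further OST subunits (median -0.26), 8 of 9 genes of trimming after the glucosidases (-0.22), 9 of 9 of nucleotide sugar synthesis (-0.17) and 7 of 10 of the ER membrane protein complex (-0.16). The remaining groups were 7 of 9 genes of other insertion routes (-0.12), 5 of 6 further genes of the lipid-linked oligosaccharide (-0.099), 5 of 7 translocon partners (-0.081) and 6 of 7 genes of dolichol and its sugars (-0.044). These lists were compared on the same 6 mice as the members, so they are not separate evidence.

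Genes of the Golgi and of secreted proteins were counted in the same way. Of all genes that averaged 500 or more, 64.0% had a lower mean, and DESeq2 called 6.77% lower and 2.77% higher. Of 15 genes of N-glycan processing in the Golgi, 6 had a lower and 9 a higher mean, with a median log2 fold change of 0.033, and 0 were called by edgeR and 1 by DESeq2. Of 36 genes for plasma proteins that pass through this pathway, 24 had a lower and 12 a higher mean, with a median of -0.049. None of the 36 was called by edgeR, while DESeq2 called 2 lower and 1 higher. Among them, the 29 N-glycosylated proteins had a median of -0.039 and the 7 without N-glycans, such as albumin, a median of -0.15.

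Whole liver holds several cell types, and fewer cells of a type cannot be told apart from less RNA per cell. The summed level of 6 hepatocyte markers overlapped between the genotypes, at 106516 to 131540 CPM (counts scaled to library size) in WT mice and 103596 to 130899 in Fmo5-/- mice. That sum consists largely of Alb. Each of the 6 had a lower mean in Fmo5-/- mice (median log2 fold change -0.10), beside 64.0% of all genes that averaged 500 or more. None of the 6 was called by edgeR or DESeq2, which called 1.06% and 6.77% of those genes lower. The genotypes did not overlap for 1 of the 6 markers, Apob (log2 fold change -0.34), which is named after its values were seen. All 6 Kupffer cell markers had higher means in Fmo5-/- mice, of which edgeR called 1 and DESeq2 4. Of all genes that averaged 500 or more, edgeR called 0.55% and DESeq2 2.77% higher. The 1 called by edgeR was Clec4f, with 3787, 3768 and 3140 normalized counts in WT mice and 5907, 6327 and 5085 in Fmo5-/- mice (log2 fold change 0.70, edgeR adjusted p = 0.0275). The summed Kupffer cell level was 135 to 156 CPM in WT mice and 196 to 373 in Fmo5-/- mice. The sums of T and NK cell markers (1.78 to 3.86 against 4.63 to 20.8 CPM) and of neutrophil markers (0.733 to 2.21 against 2.27 to 4.70 CPM) did not overlap either. The 6 markers of B and plasma cells, which are rich in ER, gave overlapping sums of 8.47 to 19.6 and 7.31 to 12.5 CPM, with 4 of the 6 higher in mean. Derl3, named after its values were seen, set this overlap, with 240, 730 and 149 normalized counts in WT mice and 41.9, 228 and 115 in Fmo5-/- mice. Without it the sum was 294, 229 and 264 normalized counts in WT mice and 315, 385 and 311 in Fmo5-/- mice, so that all Fmo5-/- mice were higher. The sums of endothelial, stellate, cholangiocyte and erythroid markers overlapped. Of 8 markers of pancreatic acinar cells, 4 (Cpa1, Cela3b, Cel and Amy2a5) were at 0 in every library, and the sum was 0.160 to 0.482 CPM in WT mice and 0.282 to 0.496 in Fmo5-/- mice. The part of the hepatocyte and immune markers in the results on the members was not tested.

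The libraries had 44886286 to 52338675 counts on genes. Of 4 shares of reads outside this total, 3 differed between the genotypes without overlap, with unmapped reads at 9.72 to 10.1% in WT and 9.10 to 9.20% in Fmo5-/- libraries, multimapping reads at 11.8 to 13.1% and 10.4 to 11.5%, and reads assigned to more than 1 gene at 3.52 to 3.62% and 3.72 to 3.98%. Reads outside genes, at 6.86 to 7.02% and 6.96 to 8.63%, overlapped. Their part in the differences of members was not tested. For 14 of the 48 members, over 5% of the 75-base windows occur in transcripts of other genes, and for Ssr3 and Ostc 0%, for Magt1 0.643%.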

How the data were processed

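Livers of 3 WT and 3 Fmo5-/- mice were sequenced as single reads of 75 bases, 1 mRNA library per mouse. Per the submitters' processing notes and the study's methods, the authors demultiplexed with bcl2fastq 2.17.1.14, mapped to mm10 with STAR 2.6.0c and deposited STAR's raw read counts per gene for each library, with both strands together and each strand alone. The release of the annotation is not given in the sources used here. The authors also deposited a table whose signal columns hold counts divided by 1 DESeq2 1.22.2 size factor per library, which were used only to check the counts and for gene symbols. Its columns of fold changes, standard errors, Wald statistics and p-values hold the authors' own comparison and were not used.

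The counts of both strands were filtered with filterByExpr (minimum count 10), scaled by TMM and tested with the robust quasi-likelihood fit of edgeR 4.0.16 in R 4.3.3, two-sided, with Benjamini-Hochberg adjustment over 16734 genes. Counting without strand cannot separate a gene from one antisense to it. Reads that STAR assigned to no gene stayed out of library sizes. Normalized counts are scaled to the mean library. The common biological coefficient of variation was 15.0%, and the median prior degrees of freedom 5.11. Each mouse is a replicate. The steps were tested on simulated data. The 48 members were named by their list. Full statistics are given for called members, for the extremes of each role and for paralogous subunits, and of the other lists only called genes are named with values, except Apob and Derl3. The members and lists were chosen with earlier results of these data known. Genes were placed on mm10 with GENCODE vM21, by identifier for 48 of 48 and with the same version for 46 (not Sec11c and Ganab), and RPKM and windows use its gene models. Alternatives were the Wald test of DESeq2 1.42.0, RLE factors, TMM without the 20 most abundant genes, no filter beyond 1 count, the limit of 500 before the fit, counts of 1 strand, and each library left out in turn.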

Additional observations from a re-analysis of the deposited data

How the results depend on the processing

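The number of members called lower was 3 with edgeR, where 1.06% of all genes that averaged 500 or more were called lower, and also 3 with RLE factors, TMM without the 20 most abundant genes and counts of 1 strand (1.05 to 1.3% of genes). The number was 9 with DESeq2 (6.77% of genes), 9 with no filter beyond 1 count (9% of genes), 0 with the limit of 500 before the fit (0.294%) and 0 to 2 with 1 mouse left out (0.0901 to 1.37%). Ssr3, Ostc and Magt1 were among the called members with DESeq2 and with no filter, which also called Sec61a1, Stt3a, Stt3b, Uggt1, Canx and Calr. Without the limit on the mean the number was 3 (0.693% of all genes), with 10 for DESeq2 (4.21%), 11 for no filter (2.62%), 0 for the limit of 500 before the fit (0.294%) and 0 to 2 with 1 mouse left out (0.088 to 0.917%). No member was called higher by edgeR in any of these settings, or by DESeq2. In the main edgeR fit alone, members were also counted at an unadjusted p under 0.05, and 0 were higher. The median log2 fold change of the members was -0.22, -0.13 with the limit of 500 before the fit, which moved the median of all genes with a mean of 500 or more from -0.062 to 0.0016, and -0.24 to -0.17 with 1 mouse left out. The number of members with a fold change above 0 was 3, with 5 for counts of 1 strand and 2 to 5 with 1 mouse left out. With the limit of 500 before the fit it was 7 of the 41 members tested. The causes of these changes were not tested. No paired analysis was possible because the labels give no replicate numbers that the genotypes share. The 7 members that averaged under 500 normalized counts could not be called under the limit on the mean, and the effect of depth was not tested.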
